A study of Mus musculus with 48 samples.

Results

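The serpins are a superfamily of protease inhibitors, named in mouse by clade letter. Members were taken as every row of the count tables whose Ensembl identifier maps to a mouse symbol made of Serpin, a clade letter from a to i and a digit, without the symbols that mark pseudogenes by "-ps". This gave 63 members among 56748 identifiers: 25 in clade a, 27 in clade b, 3 in clade e, 2 each in clades f and i, and 1 each in clades c, d, g and h. Of the 63, 53 had at least 1 count and 10 had 0 counts in all 48 libraries. The annotation types 2 of them as pseudogenes, Serpina3h and Serpinb10. The filter on low counts kept 34 members in liver, 28 in brown fat and 42 in epididymal fat, and 18 members passed it nowhere.

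The libraries come from male hepAGT+/+ and hepAGT-/- littermates, called WT and KO here, in which Agt is intact or deleted in hepatocytes. All of the mice, controls included, ate a Western diet (TD.88137, with 21% milk fat and 0.2% cholesterol) over 12 weeks under a light and dark cycle of 14 and 10 h. They lived either at room temperature (RT, 20 to 22 °C), which is cool for a mouse, or at thermoneutrality (TN, 30 °C). Bulk RNA was sequenced from the liver, from brown fat (brown adipose tissue, BAT) and from the white fat around the epididymis (eWAT), with 4 biological replicates in each of the 12 groups. The labels give neither age, nor the Cre line or promoter behind the deletion, nor the deleted part of Agt, nor whether libraries of different tissues with 1 number come from 1 mouse.

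A serpin exposes a flexible reactive centre loop that a target protease cleaves as if it were a substrate. Cleavage lets the loop insert into the body of the serpin, which drags the protease along and leaves it distorted and covalently trapped. The residues of the loop around the cleaved bond set which protease is caught. The liver secretes most circulating serpins: alpha-1-antitrypsin against neutrophil elastase, antithrombin against thrombin, alpha-2-antiplasmin against plasmin and C1 inhibitor against the complement proteases. Other members work inside cells (most of clade b), restrain plasminogen activators in tissues (clade e), or have no inhibitory role, such as the hormone carriers Serpina6 and Serpina7 and the collagen chaperone Serpinh1. Angiotensinogen, the product of Agt, is itself a non-inhibitory relative of clade a, but its symbol places it outside the members.

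Mice carry expanded copies of the human SERPINA1 and SERPINA3 genes side by side on chromosome 12. The near identity of the copies limits how well reads can be assigned to each of them. Over their whole coding sequences the 5 Serpina1 copies were 91.4 to 96.7% identical. In GRCm38 they lie on the minus strand at chr12:103853589-103863562 (Serpina1a), chr12:103728156-103830373 (Serpina1b), chr12:103894926-103904887 (Serpina1c), chr12:103763594-103773592 (Serpina1d) and chr12:103946931-103958975 (Serpina1e). The annotated span of Serpina1b contains that of Serpina1d.

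The Serpina3 copies are shown over 72 bases that start at the shared hinge of the loop, because their levels differ between liver and white fat from copy to copy. Capitals mark the 41 of 72 positions that differ among these 5, of which 8 lie in the first 36 bases and 33 in the last 36 bases.
Serpina3c: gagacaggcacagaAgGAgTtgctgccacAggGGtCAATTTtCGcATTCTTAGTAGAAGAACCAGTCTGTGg
Serpina3g: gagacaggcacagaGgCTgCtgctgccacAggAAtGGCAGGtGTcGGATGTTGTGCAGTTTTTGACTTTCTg
Serpina3k: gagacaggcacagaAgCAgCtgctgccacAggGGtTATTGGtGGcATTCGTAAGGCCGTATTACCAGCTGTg
Serpina3m: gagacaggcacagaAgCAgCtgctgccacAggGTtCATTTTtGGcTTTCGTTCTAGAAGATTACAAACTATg
Serpina3n: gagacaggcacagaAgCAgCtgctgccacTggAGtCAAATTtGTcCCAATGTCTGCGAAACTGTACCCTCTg

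The coding sequences of Serpina3c, Serpina3k, Serpina3m and Serpina3n were 82.7 to 91.0% identical, and Serpina3g was left out of that figure because its annotated reading frame is shorter. These genes run from chr12:104146382-104153870 (Serpina3c, minus strand) through chr12:104236245-104241939 (Serpina3g) and chr12:104338486-104346144 (Serpina3k) to chr12:104406729-104414329 (Serpina3n). The annotated span of Serpina3m, chr12:104338486-104394257, contains that of Serpina3k on the same strand, so their counts are uncertain where they overlap. Reads shared between copies can be split or dropped by the counting. The share of 100-base exon windows found unchanged in another gene was 58.5% for Serpina1c, 49.9% for Serpina1a, 29.3% for Serpina1d, 20.6% for Serpina1b and 14.8% for Serpina1e, so the split of counts among these 5 is uncertain. It was 4.64% for Serpina3g, 4.85% for Serpina3k, 6.09% for Serpina3m and 0.204% for Serpina3n. In all, 22 members shared at least 1 window with another gene and 41 shared none.

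Depth was 23.7 to 36.5 megacounts per library in liver, 25.3 to 39.4 megacounts in BAT and 28.7 to 43.7 megacounts in eWAT. Levels are counts per megacount (CPM) after TMM scaling within a tissue, and CPM per kilobase of exon where genes are compared with each other. The exon length is the union of all annotated exons of a gene. The labelled tissues carried their defining markers: 10 hepatocyte genes summed to 61603 to 103730 CPM in liver, 6 brown fat genes to 3228 to 13064 CPM in BAT, and 7 mature adipocyte genes to 22100 to 36547 CPM in eWAT. Agt, the deleted gene, checked the labels. In liver at RT it read 336, 434, 424 and 276 CPM in WT against 174, 202, 150 and 142 CPM in KO. At TN it read 503, 371, 454 and 309 CPM in WT, and KO read 164, 172, 125 and 207 CPM. Every KO liver was below every WT liver at the same temperature, with log2 differences of -1.14 (SE 0.18, edgeR adjusted p = 0.0096) and -1.29 (SE 0.18, edgeR adjusted p = 0.00113), so counts at Agt were reduced and not lost. In eWAT, where the deletion is not directed, Agt averaged 92.3 ± 25.7 CPM in WT against 157 ± 30.3 CPM in KO at RT (SD, n = 4) and did not pass the test (edgeR adjusted p = 0.531).

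Serpins held a median 2.20% of all counts in liver (1.78 to 2.56% over 16 libraries), 0.303% in eWAT (0.168 to 0.454%) and 0.053% in BAT (0.028 to 0.142%). A mean of at least 1 CPM was reached by 29 members in liver, 24 in BAT and 27 in eWAT. Clade sums are shares of counts and are not corrected for gene length. Clade a made the bulk of the liver signal, with a summed 14139 to 24189 CPM and a median of 17683 CPM. In eWAT clade a summed to a median of 1105 CPM and clade h, the single gene Serpinh1, to 662 CPM. In BAT the medians were 227 CPM for Serpinh1, 78.4 CPM for clade a and 63.8 CPM for clade b. The tissues thus differed in which clades held most serpin counts as well as in their total.

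**Figure D1:**
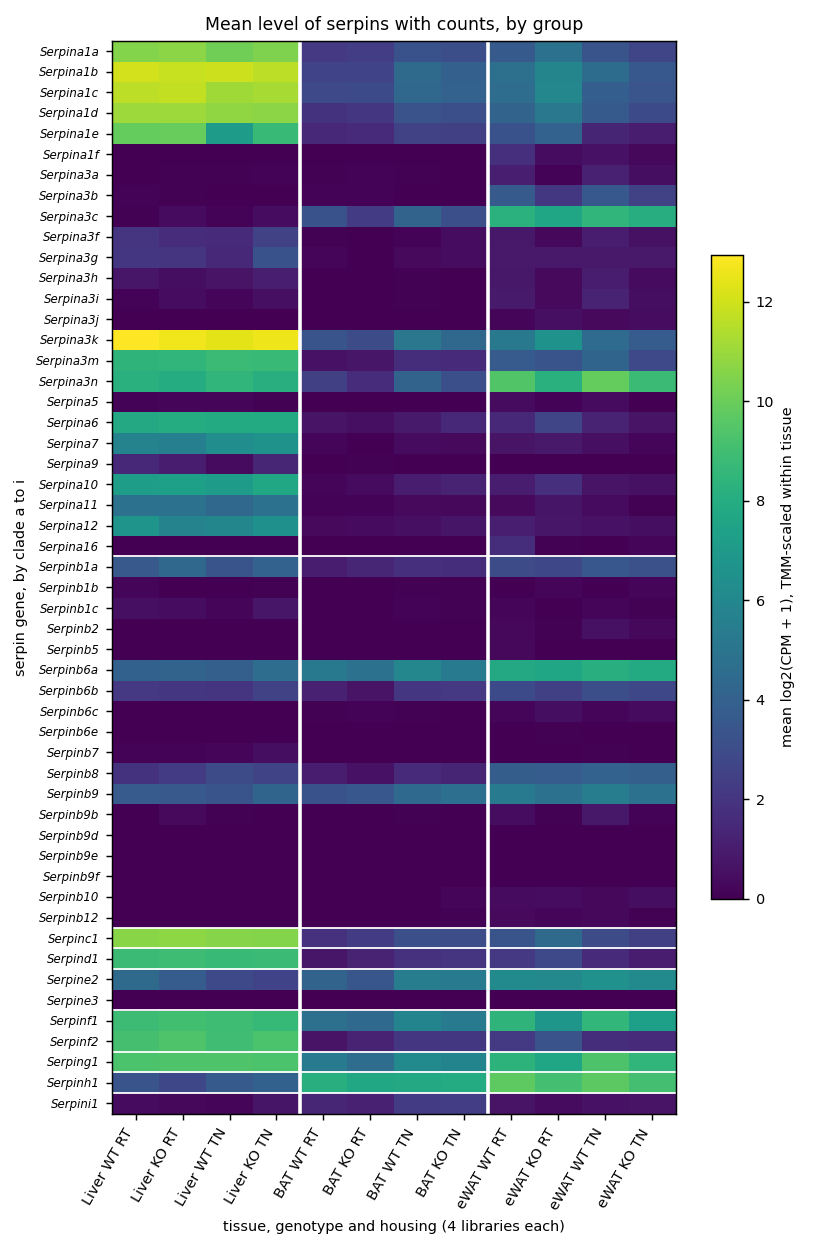
Heat map of the group mean of log2(CPM + 1) for serpins, with genes ordered by clade a to i and the 12 groups of 4 libraries as columns. Clade a genes such as Serpina3k and Serpina1a to Serpina1e are bright in the liver columns, and Serpinh1 is brighter in the eWAT and BAT columns than in liver.

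Per kilobase of exon, Serpina3k was the highest serpin of the liver, with a median of 2958 CPM per kb. Serpina1c followed at 2131, Serpina1b at 1596, Serpina1d at 1353, Serpina1a at 762 and Serpina1e at 364 CPM per kb, with the copy uncertainty given above. Next came Serping1 (C1 inhibitor) at 277, Serpinf2 (alpha-2-antiplasmin) at 246, Serpina3m at 216, Serpind1 (heparin cofactor II, a thrombin inhibitor) at 205, Serpinf1 (pigment epithelium-derived factor) at 205 and Serpinc1 (antithrombin) at 189 CPM per kb. The order in fat was another one. In eWAT Serpina3n stood at a median of 279, Serpinh1 at 271, Serping1 at 151, Serpina3c at 134, Serpinf1 at 109 and Serpinb6a at 43.7 CPM per kb. In BAT Serpinh1 stood at 92.7, Serping1 at 19.5 and Serpinf1 at 12.3 CPM per kb. Levels of Serpina3n and Serpinh1 in eWAT lay close together, and so did those of Serpind1, Serpinf1 and Serpinc1 in liver. The exon union is 8546 bases for Serpinc1 and 5409 for Serpinb6a. Their transcripts with the longest reading frame have 4970 and 1504 bases. Serpind1 has 2191 bases on both measures, so the order and the closeness depend on the length used.

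Secreted serpins varied to differing degrees over the 16 livers. Serpinc1 ran from 1304 to 1875 CPM (median 1614), Serpind1 from 393 to 568 CPM (median 449) and Serping1 from 504 to 784 CPM (median 644). Serpinf2 ran from 384 to 836 CPM (median 571) and Serpinf1 from 373 to 553 CPM (median 483). The carrier of corticosteroids, Serpina6, ran from 145 to 320 CPM (median 241), and the carrier of thyroxine, Serpina7, from 20.9 to 123 CPM (median 77.7). Serpina10, which with protein Z inhibits coagulation factor Xa, ran from 122 to 274 CPM (median 160). Serpina12, the adipokine vaspin, ran from 43.9 to 175 CPM in liver (median 72.2) and reached at most 5.95 CPM in eWAT and 1.66 CPM in BAT.

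Among the alpha-1-antitrypsin copies, Serpina1b ran from 2902 to 4607 CPM in liver and Serpina1d from 1498 to 2356 CPM. Serpina1a ran from 873 to 1829 CPM and Serpina1c from 1636 to 3842 CPM. Serpina1e was the variable copy, from 34.7 to 1974 CPM with a median of 589 CPM. Within the Serpina3 cluster, Serpina3k ran from 3912 to 10617 CPM and Serpina3n from 209 to 457 CPM.

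Fitted over all 48 libraries, 36 of 45 tested members differed between BAT and liver, 7 higher and 29 lower in BAT, when 68.6% of all 21910 tested genes differed. Between eWAT and liver 39 of 45 differed, 16 higher and 23 lower in eWAT, against 73.8% of all genes. Between eWAT and BAT 27 of 45 differed, against 60.3% of all genes, 26 higher in eWAT and 1 lower. The shares of members are near or modestly above these backgrounds. The 1 member lower in eWAT than in BAT was Serpini1, neuroserpin, an inhibitor of tissue plasminogen activator, with a log2 difference of -2.66 (SE 0.37) between a median of 0.458 CPM and a median of 2.16 CPM. Its range in BAT was 0.953 to 5.53 CPM.

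As means over the 4 groups of a tissue, Serpinh1, Serpine2 and Serpinb6a were higher in both fats than in liver. Serpinh1, an endoplasmic reticulum chaperone of procollagen, ran from 402 to 982 CPM in eWAT, 182 to 369 CPM in BAT and 4.19 to 18.9 CPM in liver, so the 3 tissues did not overlap. Its log2 difference was 5.45 between eWAT and liver and 4.40 between BAT and liver. Serpine2, protease nexin-1, which inhibits thrombin and urokinase, ran from 54.1 to 137 CPM in eWAT, 8.07 to 57.5 CPM in BAT and 3.54 to 23.7 CPM in liver. Its BAT range overlapped both others, and the order of BAT and liver turned with temperature. In both genotypes the Serpine2 mean at RT was lower in BAT than in liver. At TN every BAT library was above every liver library. Serpinb6a, an inhibitor that works inside cells, ran from 152 to 311 CPM in eWAT, 21.9 to 71.6 CPM in BAT and 10.3 to 31.5 CPM in liver.

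The Serpina3 copies divided by tissue. Serpina3c ran from 179 to 390 CPM in eWAT, 2.46 to 20.9 CPM in BAT and 0 to 1.28 CPM in liver, with 0 counts in 3 of 16 livers. Serpina3n ran from 251 to 1157 CPM in eWAT and 209 to 457 CPM in liver, and these tissues did not differ by the test (log2 0.36, edgeR adjusted p = 0.162). In BAT it ran from 0.332 to 23.6 CPM, a log2 difference of 5.92 between eWAT and BAT. Serpina3k was highest in liver, with 1.83 to 446 CPM in eWAT and 0.133 to 143 CPM in BAT against the liver range given above. Bulk levels do not separate fewer cells of a type from less RNA per cell.

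A group of 15 liver-made serpins (Serpina1a to Serpina1e, Serpina3k, Serpina3m, Serpina6, Serpina7, Serpina10, Serpina11, Serpina12, Serpinc1, Serpind1 and Serpinf2), grouped with their levels known, was lower in both fats: all 15 in BAT, by log2 -9.63 to -7.12, and all 15 in eWAT, by log2 -7.59 to -5.56. Because of that grouping the direction is a description and not a result. Of all tested genes 68.6% differed between BAT and liver and 73.8% between eWAT and liver. Plain CPM of the 15 serpins summed to 16107 to 24358 in liver, 3.95 to 665 in BAT and 15.2 to 1516 in eWAT. Over the same libraries the 10 hepatocyte markers summed to 61603 to 103730, 7.24 to 2829 and 30.1 to 5210 CPM. Taken as a percentage of the hepatocyte sum, the liver-made serpins had a median of 23.8% in liver, 28.3% in BAT and 29.4% in eWAT. Those percentages ran from 16.2 to 39.5% in liver, 17.6 to 54.5% in BAT and 20.9 to 90.8% in eWAT. In the highest, eWAT WT TN replicate 7, Serpina3m had 501 counts and Serpina1b 70. On the serpin sum and on the hepatocyte sum BAT KO TN replicate 2 and eWAT KO RT replicate 16 were the highest fat libraries. The same 2 libraries led gene by gene for many of the 15. Serpina1b ran from 0.199 to 113 CPM in BAT and 1.45 to 231 CPM in eWAT, Serpina1c from 0.265 to 103 CPM and 0.418 to 223 CPM, Serpina1a from 0.331 to 50.1 CPM and 1.17 to 86.4 CPM, and Serpina1d from 0 to 53.9 CPM and 1.35 to 136 CPM. Antithrombin, Serpinc1, ran from 0.313 to 39.7 CPM in BAT and 0.696 to 91.6 CPM in eWAT, Serpind1 from 0 to 10.5 CPM and 0.209 to 30.6 CPM, and Serpinf2 from 0 to 17.0 CPM and 0 to 32.7 CPM. Each of these spans covers more than the whole liver span of the same gene on a ratio scale. Serpina6 reached 5.15 CPM in BAT and Serpina10 4.05 CPM, both in KO TN 2, and Serpina6 reached 24.8 CPM and Serpina10 7.46 CPM in eWAT, both in KO RT 16. Exceptions were Serpina1e, highest in BAT KO TN 5 (15.9 CPM) and eWAT WT RT 18 (91.5 CPM), and Serpina12, highest in eWAT WT RT 18. The part of liver RNA in the fat libraries' counts of these 15 genes was not tested. Between eWAT and BAT only Serpina3m of the 15 differed (log2 2.49), where 60.3% of all genes did.

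**Figure D2:**
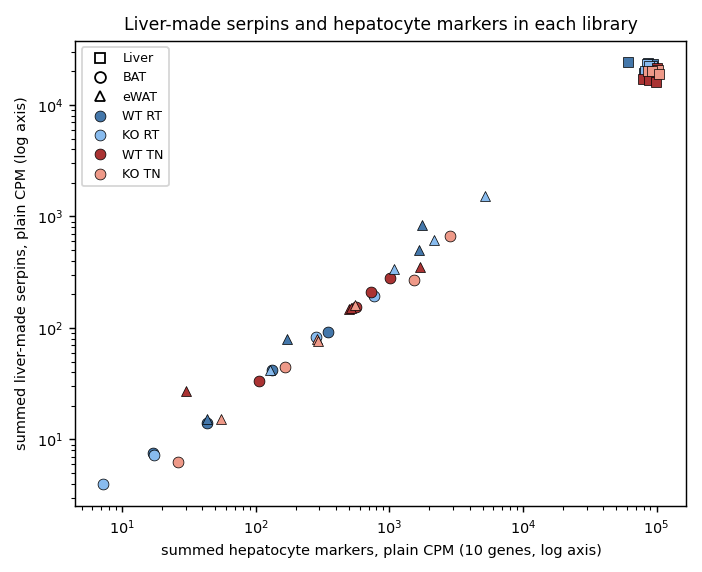
Summed plain CPM of 15 liver-made serpins against summed plain CPM of 10 hepatocyte markers, both on log axes, 1 point per library and 16 points per tissue. Liver points lie together at the upper right, and fat points spread from a serpin sum of 3.95 CPM to 1516 CPM.

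Genotype and housing effects were tested in 12 comparisons of 4 against 4 libraries, in which 13 members gave 28 calls (edgeR quasi-likelihood test, Benjamini-Hochberg adjusted p below 0.05 over all tested genes). Log2 differences below are KO minus WT for genotype and TN minus RT for temperature, and errors are SD over 4 libraries for means and SE for log2 differences.

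In liver at RT, 0 of 34 members differed by genotype with edgeR (0.0853% of all genes did), and DESeq2 called 1 member. An unadjusted p below 0.05 was found in 3 members, against 1799 of all 17594 tested genes. The vaspin gene Serpina12 averaged 109 ± 45.5 CPM in WT and 54.3 ± 10.7 CPM in KO (edgeR adjusted p = 0.126).

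At TN 4 of 34 members differed by genotype in liver, all higher in KO, against 3.18% of all genes. Serpina3g, an intracellular inhibitor of cysteine cathepsins known from activated macrophages and T cells, read 2.58, 2.40, 1.46 and 1.20 CPM in WT and 5.19, 13.0, 16.2 and 4.81 CPM in KO. All 4 KO livers were above all 4 WT livers, and KO replicates 4 and 5 were the highest. The log2 difference was 2.36 (SE 0.39, edgeR adjusted p = 0.00336), and it kept an adjusted p of at most 0.0152 when any 1 library was left out. Serpinb9, an inhibitor of granzyme B that protects cells from their own or neighbouring cytotoxic granules, read 6.70, 9.26, 9.22 and 12.5 CPM in WT and 14.0, 19.5, 20.5 and 14.2 CPM in KO. These groups did not overlap either (log2 0.86, SE 0.23, edgeR adjusted p = 0.0471). Serpinb6a read 13.4, 14.9, 15.0 and 13.6 CPM in WT and 20.6, 31.5, 24.7 and 19.7 CPM in KO (log2 0.76, SE 0.20, edgeR adjusted p = 0.0405).

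Of the secreted coagulation inhibitors only Serpina10 rose in these KO livers. It read 167, 122, 145 and 125 CPM in WT and 173, 205, 193 and 274 CPM in KO, again without overlap (log2 0.60, SE 0.14, edgeR adjusted p = 0.0248). At RT the same 4 genes had log2 differences of 0.07 (Serpina10), -0.13 (Serpina3g), 0.07 (Serpinb6a) and -0.06 (Serpinb9), none called. The difference between the genotype effects at TN and RT was 2.49 for Serpina3g and 1.60 for Serpina12 on the log2 scale, both at an edgeR adjusted p of 0.399. In that interaction 0 of 34 members were called by edgeR (0.00% of all genes), and DESeq2 called 2. An unadjusted p below 0.05 was found in 10 members, against 1290 of all 17594 tested genes. A different response to genotype at TN and RT was therefore not established for any member by edgeR.

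Over the 34 members tested, the median log2 genotype difference in liver at TN was 0.31, against 0.05 over all tested genes. KO TN replicates 4 and 5 also held the highest sums of macrophage markers, 733 and 850 CPM against 202 to 397 CPM in the other livers, and of T and NK cell markers, 17.0 and 32.4 CPM against 1.4 to 6.9 CPM. Of those lists 1 of 10 macrophage markers and 0 of 7 tested T and NK markers were called higher, against 3.18% of all genes in either direction. Without these 2 libraries 0 members were called, and Serpina3g had a log2 difference of 1.40 (edgeR adjusted p = 0.123). Leaving out 1 library ended the call of Serpina10 without KO 4 or 22 or WT 6, 7 or 24 (adjusted p up to 0.0949), of Serpinb6a without KO 4 or 5 or any WT library (up to 0.173), and of Serpinb9 whenever 1 library other than WT 24 was left out (up to 0.145).

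Serpine2 was lower at TN than at RT in the livers of both genotypes. In WT it read 18.4, 23.7, 21.9 and 21.1 CPM at RT and 5.13, 7.55, 5.21 and 7.12 CPM at TN. The highest TN liver was below the lowest RT liver, with a log2 difference of -1.77 (SE 0.23, edgeR adjusted p = 0.00134) that remained called without any 1 library (adjusted p at most 0.0153). In KO it read 13.2, 16.4, 13.0 and 8.54 CPM at RT and 6.38, 6.00, 4.75 and 3.54 CPM at TN (log2 -1.31, SE 0.22, edgeR adjusted p = 0.0304). This KO call was lost without KO RT 9 or 10, or KO TN 4 or 5 (adjusted p up to 0.129). Serpine2 was the 1 member of 34 called in each of the genotypes, where 0.0227% of all genes were called in WT and 0.114% in KO. Its genotype difference at RT was -0.73 (edgeR adjusted p = 0.214).

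Serpina1e spread too widely for a call. In WT livers it read 285, 1207, 1076 and 1974 CPM at RT and 590, 83.5, 34.7 and 228 CPM at TN, so 1 RT library lay inside the TN range (log2 -2.28, SE 0.76, edgeR adjusted p = 0.454). In KO livers it read 1307, 913, 996 and 760 CPM at RT and 343, 530, 588 and 349 CPM at TN, without overlap (log2 -1.14, edgeR adjusted p = 0.647). The other Serpina1 copies had log2 temperature differences in WT of -0.39 (Serpina1a), -0.10 (Serpina1b), -0.54 (Serpina1c) and -0.20 (Serpina1d), none called.

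**Figure D3:**
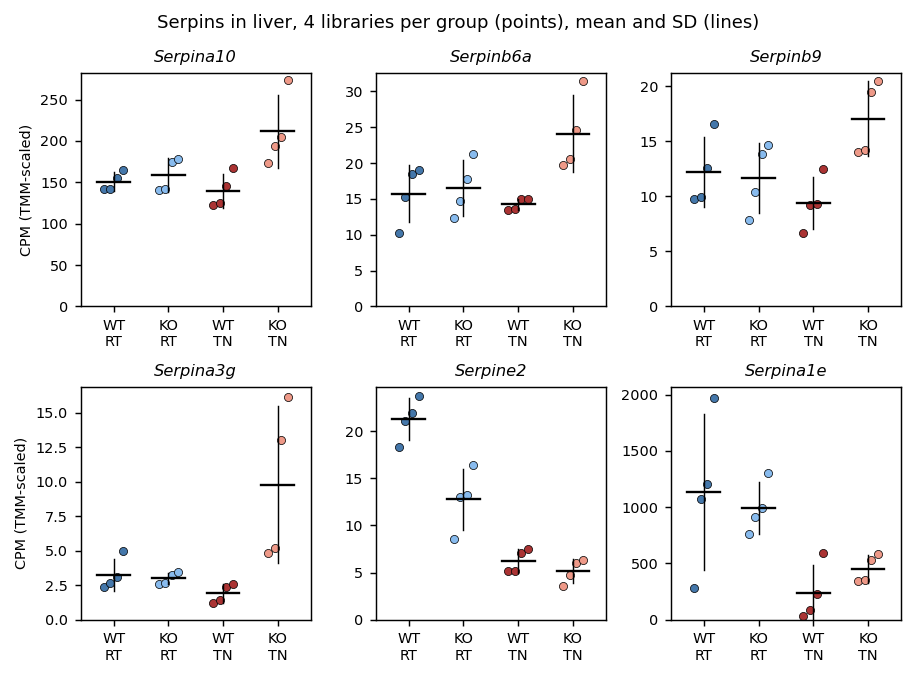
CPM of single liver libraries on axes that start at 0, for serpins that the liver results turn on, in 4 groups of 4 with the group mean as a horizontal line and the SD as a vertical line. Serpine2 is lower in both TN groups, and Serpina3g is high in the KO TN group, where its libraries read 4.81 to 16.2 CPM.

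Promoters are shown for 3 members that moved in liver, as the 120 bases before the RefSeq start (GRCm38.p6, gene strand): Serpine2 as the gene lowered at TN, and Serpina3g and Serpinb6a as genes higher in KO at TN. Capitals mark a match to TTCNNNGAA, the letters bound by STAT factors. Serpinb6a has another RefSeq entry with a start elsewhere in the gene, which holds none of the motifs searched and is not printed. Of the other members called higher in KO at TN, Serpinb9 has an entry that also holds none of these motifs. Serpina10 has no entry among the promoters searched. The RefSeq start of Serpina3g does not fall on a GENCODE M21 transcript.
Serpine2 (chr1:79858666-79858785, minus strand): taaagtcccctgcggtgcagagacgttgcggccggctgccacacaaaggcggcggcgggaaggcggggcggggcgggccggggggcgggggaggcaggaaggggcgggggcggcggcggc
Serpina3g (chr12:104236027-104236146, plus strand): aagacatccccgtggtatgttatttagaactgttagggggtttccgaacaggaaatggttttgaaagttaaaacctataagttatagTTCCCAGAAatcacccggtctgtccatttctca
Serpinb6a (chr13:34002795-34002914, minus strand): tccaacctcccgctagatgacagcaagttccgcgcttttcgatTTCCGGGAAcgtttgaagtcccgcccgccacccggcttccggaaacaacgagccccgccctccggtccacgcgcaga

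The match lies 33 bases before the start in Serpina3g and 77 bases before it in Serpinb6a. Over the 250 bases before each start and on both strands, TTCNNNGAA occurs in 7.02% of 32851 mouse promoters and in 8 of the 53 members with a promoter entry. The C/EBP letters TTGCNNAA occur in 9.56% of promoters and 12 members, the AP-1 letters TGANTCA in 6.75% and 11 members, and the E-box CACGTG in 6.02% and 0 members. Of the 53 members some have several entries, 62 in all, so the shares per member and per promoter are not on the same base. None of the 4 motifs lies in the Serpine2 window. A match describes letters, not binding.

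BAT held 13 of the 28 calls, all of them with temperature. At TN 6 of 28 members were called against RT in WT, where 32.5% of all genes were called, and 7 of 28 in KO, where 15.2% were called. The share of members called in WT was below the background. All 13 calls were increases, and the median log2 difference was 1.30 over members against 0.11 over all genes in WT, and 1.49 against 0.04 in KO. Positive differences were found in 27 of 28 members in WT and 28 of 28 in KO, liver-made serpins included. The hepatocyte marker sum of the same libraries ran from 17.0 to 347 CPM at RT and 106 to 1009 CPM at TN in WT, and from 7.24 to 769 and 26.2 to 2829 CPM in KO, and its part in these directions was not tested.

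Serpine2 rose most clearly. It read 14.0, 19.4, 12.4 and 20.5 CPM in WT at RT and 40.3, 47.9, 30.4 and 57.5 CPM at TN. In KO it read 9.71, 8.07, 12.0 and 10.7 CPM at RT and 44.3, 41.3, 36.0 and 39.7 CPM at TN. No RT library reached any TN library, with log2 differences of 1.41 (SE 0.20, edgeR adjusted p = 5.77e-05) in WT and 2.00 (SE 0.20, edgeR adjusted p = 5.7e-06) in KO.

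Serpinf1, an anti-angiogenic serpin without inhibitory activity, read 15.9, 39.6, 26.8 and 26.5 CPM at RT and 50.6, 57.6, 67.6 and 52.5 CPM at TN in WT (log2 1.07, SE 0.28, edgeR adjusted p = 0.00838). In KO it read 19.2, 21.0, 20.1 and 21.1 CPM at RT and 73.4, 26.1, 31.4 and 44.04 CPM at TN (log2 1.10, SE 0.28, edgeR adjusted p = 0.0139). The KO libraries were tight at RT and spread at TN. The C1 inhibitor gene Serping1 was called in KO, from 29.2, 25.7, 17.7 and 22.0 CPM to 87.8, 42.2, 44.5 and 55.8 CPM (log2 1.28, SE 0.32, edgeR adjusted p = 0.0121). In WT its means were 40.9 and 70.9 CPM (log2 0.79, edgeR adjusted p = 0.0647).

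Among the intracellular clade b inhibitors, Serpinb9 rose in both genotypes. In WT it went from 7.22, 8.91, 10.3 and 7.51 CPM to 26.5, 22.2, 26.7 and 10.6 CPM (log2 1.34, SE 0.25, edgeR adjusted p = 0.000587), and in KO from a mean of 10.4 ± 2.57 to 25.6 ± 3.49 CPM (log2 1.30, SE 0.25, edgeR adjusted p = 0.00178). WT TN replicate 24 was the low library at TN. Serpinb6a rose in WT from 21.9, 57.1, 40.7 and 35.1 CPM to 52.8, 67.6, 61.3 and 71.6 CPM, with 1 RT library inside the TN range (log2 0.71, SE 0.22, edgeR adjusted p = 0.0210). That call was lost without WT RT 18 (adjusted p = 0.0596). Its relative Serpinb6b rose in KO from 0.594 ± 0.174 to 3.45 ± 0.395 CPM (log2 2.53, SE 0.57, edgeR adjusted p = 0.00561). The other genotype went the same way without a call, with log2 1.33 for Serpinb6b in WT (edgeR adjusted p = 0.0694). For Serpinb6a in KO it was log2 0.56 (edgeR adjusted p = 0.103).

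Neuroserpin, Serpini1, rose in both genotypes at low levels. In WT it read 2.37, 1.94, 1.20 and 1.20 CPM at RT and 5.53, 3.61, 5.01 and 1.62 CPM at TN, with overlap (log2 1.23, SE 0.38, edgeR adjusted p = 0.0206), and the call was lost without WT RT 17 or 18, or WT TN 1 or 7 (adjusted p up to 0.0729). In KO it rose from 1.31 ± 0.459 to 4.12 ± 0.876 CPM without overlap (log2 1.65, SE 0.39, edgeR adjusted p = 0.00751). Serpinh1, the highest serpin of BAT per kilobase, was not called: its means were 290 ± 69.7 and 223 ± 35.1 CPM in WT (log2 -0.38, edgeR adjusted p = 0.136) and 213 ± 31.0 and 251 ± 52.2 CPM in KO (log2 0.24, edgeR adjusted p = 0.472).

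**Figure D4:**
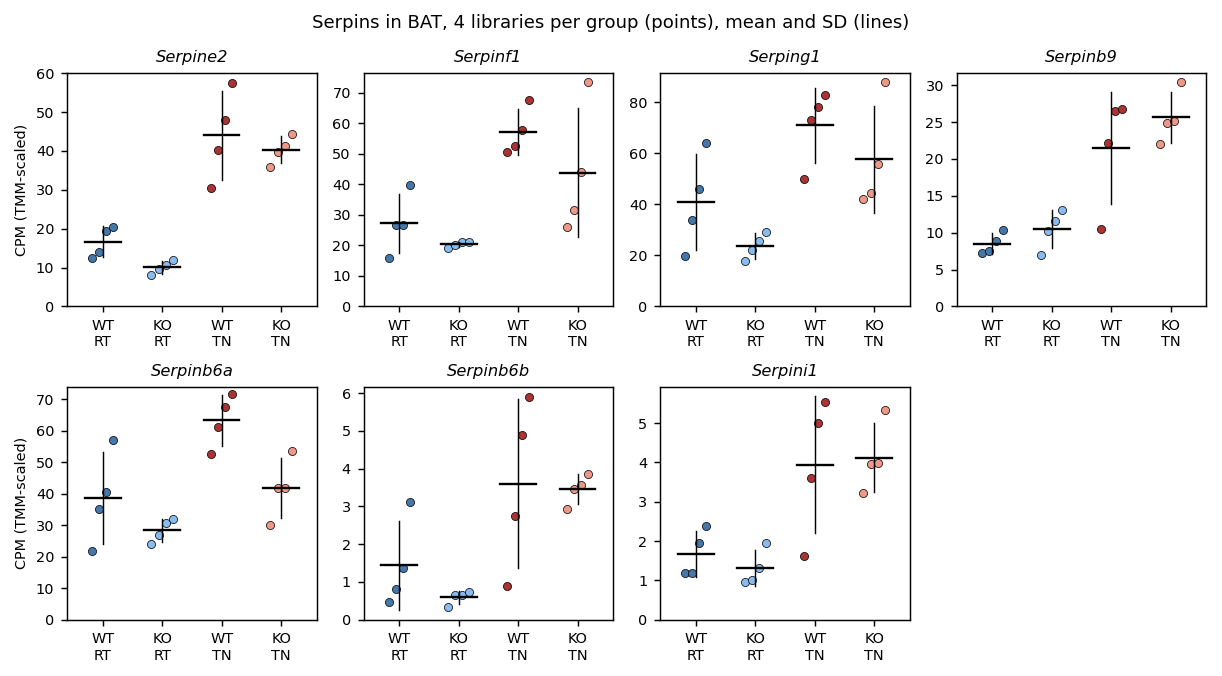
CPM of single BAT libraries on axes that start at 0, for serpins that the BAT results turn on, in 4 groups of 4 with the group mean as a horizontal line and the SD as a vertical line. Both TN groups sit above both RT groups for Serpine2, whose RT libraries reach 20.5 CPM and whose TN libraries start at 30.4 CPM.

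Markers of cell types moved with temperature in the same BAT libraries. The sum of 10 macrophage markers ran from 54.7 to 143 CPM at RT and 258 to 592 CPM at TN in WT, and from 64.5 to 80.8 and 209 to 327 CPM in KO, and 9 of 10 were called higher in each genotype. The sum of 7 fibroblast markers ran from 223 to 318 and 832 to 1285 CPM in WT, and from 202 to 336 and 707 to 1134 CPM in KO, with 4 of 7 called higher in each. Brown adipocyte markers moved the other way, with 4 of 6 called lower in each genotype. In WT 4 of 5 endothelium markers were also called higher and 2 of 7 mature adipocyte markers lower. Of all genes 32.5% were called in WT and 15.2% in KO, in either direction, and the mature adipocyte count is below that WT share. The part of these shifts in the serpin differences was not tested. Skeletal muscle markers were highest in KO RT 14 and 19, KO TN 2, and WT TN 6 and 24, at 1116 to 6859 CPM. KO TN 5 followed at 970 CPM and was kept in the next fit. Without the 5 highest libraries 4 members were called in KO, and Serpinf1 (log2 0.80, edgeR adjusted p = 0.167) and Serping1 (log2 0.84, edgeR adjusted p = 0.284) were not. In WT, Serpinb6a (log2 0.57, edgeR adjusted p = 0.150) was not.

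No serpin was called by genotype in BAT with edgeR. At RT 0 of 28 members were called (0.0887% of all genes), and 2 were called by DESeq2. An unadjusted p below 0.05 was found in 6 members, against 3507 of all 18032 tested genes. Serpine2 had the lowest adjusted p (16.6 ± 3.98 CPM in WT, 10.1 ± 1.64 CPM in KO, log2 -0.71, edgeR adjusted p = 0.107). Leaving out WT RT replicate 12 brought 5 members past the threshold, and the share of all genes called in that fit is not given here. At TN 0 of 28 were called (0.00% of all genes), and 0 by DESeq2, with 1 at an unadjusted p below 0.05 against 945 of 18032 genes. In the interaction 0 of 28 were called (0.00% of all genes), and 0 by DESeq2, with 2 at an unadjusted p below 0.05 against 1832 of 18032 genes.

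In eWAT, 6 of 42 members were called by genotype at RT, all lower in KO, against 4.34% of all genes, and 2 of 42 at TN, both lower in KO, against 0.586%. Serpinf1 showed the clearest separation. It read 302, 324, 383 and 363 CPM in WT against 121, 111, 117 and 100.3 CPM in KO at RT, and 386, 370, 422 and 347 CPM in WT against 185, 214, 106 and 140 CPM in KO at TN. The highest KO library at either temperature was below the lowest WT library. The log2 differences were -1.61 (SE 0.16, edgeR adjusted p = 0.000225) at RT and -1.24 (SE 0.16, edgeR adjusted p = 0.00877) at TN, and both remained called without any 1 library. With only the 8 TN libraries fitted, the TN call was lost (edgeR adjusted p = 0.0679).

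Serpina3n, the acute-phase Serpina3 copy that carries the loop shown above, read 478, 789, 648 and 942 CPM in WT against 251, 281, 312 and 334 CPM in KO at RT (log2 -1.28, SE 0.23, edgeR adjusted p = 0.00563). At TN it read 1157, 1102, 669 and 910 CPM in WT and 548, 603, 333 and 380 CPM in KO (log2 -1.04, SE 0.22, edgeR adjusted p = 0.0452). Neither pair of groups overlapped, but the TN call was lost without KO 3, 5 or 21 or WT 6, 7 or 23 (adjusted p up to 0.196). Serpina3c, the copy nearly absent from liver, read 272, 338, 291 and 345 CPM in WT against 179, 239, 183 and 213 CPM in KO at RT (log2 -0.62, SE 0.14, edgeR adjusted p = 0.0176). Its TN difference was -0.43 (edgeR adjusted p = 0.147), and its RT call was lost without KO 9 or WT 13 or 18 (adjusted p up to 0.0819).

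The matrix and complement serpins were lower in KO as well. Serpinh1 read 873, 845, 664 and 982 CPM in WT against 566, 518, 454 and 598 CPM in KO at RT (log2 -0.66, SE 0.16, edgeR adjusted p = 0.0234). Its call was lost without KO 10 or 16 or WT 12, 13 or 18 (adjusted p up to 0.107). Serping1 read 245, 336, 339 and 427 CPM in WT against 200.3, 214, 184 and 186 CPM in KO at RT, without overlap (log2 -0.78, SE 0.18, edgeR adjusted p = 0.0224). Its call was lost whenever 1 library other than WT 12 was left out (adjusted p up to 0.106). At TN the differences were -0.61 for Serpinh1 (edgeR adjusted p = 0.0777) and -0.80 for Serping1 (edgeR adjusted p = 0.0525), near the RT values in size.

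**Figure D5:**
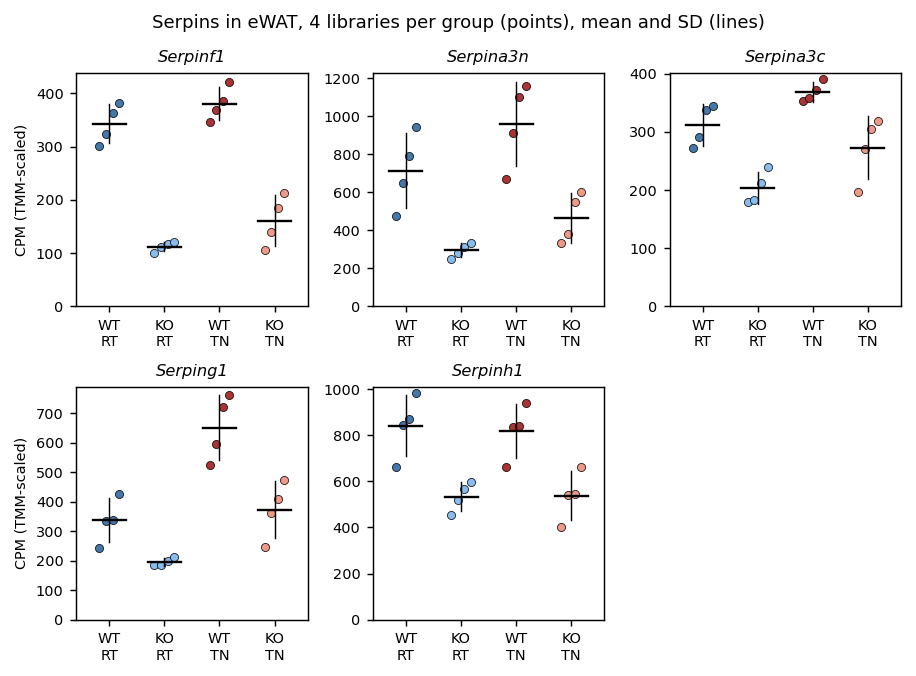
CPM of single eWAT libraries on axes that start at 0, for serpins that the eWAT results turn on, in 4 groups of 4 with the group mean as a horizontal line and the SD as a vertical line. The KO groups of Serpinf1 stay at or below 214 CPM and the WT groups at or above 302 CPM at both temperatures.

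Over all 42 tested members the median log2 genotype difference in eWAT was -0.22 at RT and -0.92 at TN, against 0.00 and 0.01 over all genes. At TN only 4 of 42 members had a positive difference. Those 42 include the 15 liver-made serpins, none of them called, in libraries whose hepatocyte marker sum ran from 30.1 to 1700 CPM in WT TN and 55.5 to 552 CPM in KO TN. Macrophage marker sums ran from 936 to 1366 CPM in WT and 725 to 988 CPM in KO at RT, and from 1467 to 2505 and 1093 to 1314 CPM at TN. Of these markers 3 of 10 and 1 of 10 were called lower in KO, against 4.34% and 0.586% of all genes in either direction. None of 7 fibroblast markers was called at either temperature. The part of these shifts was not tested. Epididymis markers reached 946 CPM in WT RT 18 against at most 17.9 CPM in the other libraries, and KO RT 16 was highest in hepatocyte markers. Without these 2 libraries 3 members were called at RT, and Serpina3c (log2 -0.50, edgeR adjusted p = 0.117), Serping1 (log2 -0.60, edgeR adjusted p = 0.145) and Serpinh1 (log2 -0.48, edgeR adjusted p = 0.162) were not.

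Temperature moved 1 of 42 members in KO eWAT, against 1.74% of all genes. Serping1 rose from 200.3, 214, 184 and 186 CPM at RT to 409, 473, 247 and 363 CPM at TN, without overlap (log2 0.93, SE 0.18, edgeR adjusted p = 0.0235), and the call was lost without KO RT 10 or 19 or KO TN 3, 4 or 21 (adjusted p up to 0.0979). In WT it read 762, 721, 596 and 526 CPM at TN, above every WT RT library, with a similar log2 difference of 0.95 (edgeR adjusted p = 0.134). In WT 0 of 42 members were called by edgeR (0.00% of all genes), and DESeq2 called 1, Serping1. An unadjusted p below 0.05 was found in 5 members, against 1324 of all 18933 tested genes. In the interaction 0 of 42 were called (0.00% of all genes), and 0 by DESeq2, with 1 at an unadjusted p below 0.05 against 1439 of 18933 genes.

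Whether an effect differed between the 3 tissues was tested in the fit of all 48 libraries. That fit treated libraries with 1 replicate number in different tissues as independent. With a block for that number fewer members were called for genotype at TN and for temperature, as given at the end. For genotype at RT 1 of 45 members differed between tissues, against 2.06% of all genes: Serpinf1, with log2 differences of 0.14 in liver, -0.42 in BAT and -1.61 in eWAT (edgeR adjusted p = 0.00239). For genotype at TN 1 of 45 differed, against 0.904% of all genes: Serpinb6a, with 0.76 in liver, -0.60 in BAT and -0.20 in eWAT (edgeR adjusted p = 0.0254). For temperature 4 of 45 differed in WT, against 15.0% of all genes, and 4 of 45 in KO, against 4.06%. Serpine2 went in opposite directions: -1.77 in liver, 1.41 in BAT and 0.44 in eWAT in WT (edgeR adjusted p = 3.44e-09), and -1.31, 2.00 and 0.09 in KO (edgeR adjusted p = 2.8e-09). In WT the effect also differed for Serpinb9 (-0.37, 1.34 and 0.12, edgeR adjusted p = 0.00098) and Serpinf1 (0.08, 1.07 and 0.15, edgeR adjusted p = 0.0236). In KO they were Serpinf1 (-0.31, 1.10 and 0.52, edgeR adjusted p = 0.00546), Serping1 (-0.08, 1.28 and 0.93, edgeR adjusted p = 0.0179) and Serpina6 (-0.07, 2.19 and -3.68, edgeR adjusted p = 0.0464). Serpina6 is near 0 in most fat libraries, with 24.8 CPM in eWAT KO RT 16.

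The proteases and cofactors that serpins act on were followed as a list of 30. In BAT 9 of 26 tested rose at TN in WT and 8 of 26 in KO, with median log2 differences of 1.12 and 1.22, where 32.5% and 15.2% of all genes were called in either direction. The WT share is near that background. The urokinase gene Plau went from 14.2 ± 2.90 to 35.7 ± 8.90 CPM in WT (log2 1.33, edgeR adjusted p = 0.000106), and its receptor Plaur from 0.867 ± 0.443 to 3.74 ± 0.488 CPM (log2 2.12, edgeR adjusted p = 0.00123). Lrp1, an endocytic receptor that clears serpin and protease complexes, rose by log2 1.15 in WT and 0.86 in KO, and the C1 protease gene C1s1 by 1.04 and 0.80. In eWAT at RT 1 of 28 was higher and 3 were lower in KO, with a list median of 0.26, against 4.34% of all genes called. Thbd, thrombomodulin, was higher at RT (log2 1.07, edgeR adjusted p = 0.0473) and TN (log2 1.58, edgeR adjusted p = 0.0401), and the cathepsin genes Ctsl (1056 ± 279 CPM in WT against 528 ± 83.0 CPM in KO at RT, log2 -0.89 at TN) and Ctss (log2 -0.97 at RT, -1.18 at TN) were lower.

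Of 20 collagen biosynthesis genes that work with Serpinh1, 16 of 20 rose at TN in WT BAT and 12 of 20 in KO BAT (median log2 0.95 and 0.68), against 32.5% and 15.2% of all genes, and Serpinh1 itself was not called. In eWAT at RT 7 of 20 were lower in KO (median -0.49), against 4.34% of all genes, and at TN 1 of 20, Lox, against 0.586%. At TN against RT 4 of 20 were higher in KO eWAT, where 1.74% of all genes were called. In KO liver 1 of 19 tested, Col4a1, was higher at TN, where 0.114% of all genes were called. Among 20 acute-phase genes, Saa3 was the 1 called in liver by genotype at TN, where 3.18% of all genes were (6.02 ± 1.63 CPM in WT, 23.1 ± 13.4 CPM in KO, log2 1.94, edgeR adjusted p = 0.0334). In BAT 2 of 20 were called at TN in each genotype, below the 32.5% and 15.2% of all genes. These were Orm1 (log2 -1.98 in WT and -1.80 in KO) and Orm3 (-2.88 and -2.42), which fell. The list median was 1.26 in WT and 1.24 in KO, but 0 genes of the list were called higher. Fga, Fgb and Hpx of this list are also among the hepatocyte markers, and their part in the median was not tested. In eWAT at RT Hp was lower (log2 -1.54) and Cp higher (log2 0.79) in KO, 2 of 20 against 4.34% of all genes. Apcs was higher at TN than at RT in KO liver (log2 1.11, edgeR adjusted p = 0.0396), 1 of 20 against 0.114% of all genes.

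Genes whose levels followed a serpin most closely were ranked by Spearman's rho over the 16 libraries of a tissue, as a description with group and depth shared among the points. For Serpine2 in liver, over 13215 genes, these were Gstm4 (0.91), Vars2 (0.89), Shoc2 (0.87), Gstp1 (0.86) and Psmd12 (0.86). For Serpina3n the nearest genes differed by tissue: C4b (0.89), Ctsz (0.86), Wbp1l (0.86), Ubap2 (0.86) and Prkaca (0.85) in liver, Apod (0.93), D430019H16Rik (0.91), Alcam (0.90), Cmklr1 (0.90) and Fgf10 (0.90) in BAT over 13630 genes, and Tph2 (0.97), Pvalb (0.97), Lbp (0.96), Ppic (0.96) and Lrg1 (0.96) in eWAT over 14396 genes.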

How the data were processed

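Bulk RNA was sequenced from liver, BAT and eWAT of male mice in 12 groups of 4 libraries. Per the labels' protocols, total RNA came from Maxwell RSC simplyRNA kits, libraries from NEBNext Ultra kits, and paired-end reads from a NovaSeq instrument. The submitters' processing notes name fastp, STAR 2.6.1d, featureCounts 1.5.0-p3 and the builds GRCm38 and mm10. The annotation release and the handling of strand and of reads with several matches are not given in the sources used here. The values deposited by the authors are raw counts per gene, checked to be whole and unnormalised.

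GENCODE M21 named 52073 of 56748 identifiers (91.8%), which held at least 94.8% of the counts of each library. The members, gene lists and tests were chosen with earlier results of these data known. Each tissue was fitted over its 16 libraries, and all 48 together for comparisons between tissues, with edgeR 4.0.16 in R 4.3.3: scaling by TMM, low genes dropped by filterByExpr (minimum count 10), a mean for each group, robust quasi-likelihood F tests, and Benjamini-Hochberg adjustment over all tested genes with a threshold of 0.05. Levels between tissues are group means averaged over the 4 groups of a tissue. Marker sums use plain CPM. The fits were tested on simulated counts. Values per library are given for members called in a within-tissue comparison with a mean of at least 1 CPM, at most the 6 with the largest change per comparison, and for members of known role. Alternatives were DESeq2 1.42.0, its size factors in edgeR, no count filter, a filter of 1 CPM in 4 libraries, fits of only the 8 libraries compared, each library left out, and a replicate block. Added after seeing the data were fits without 2 liver, 5 BAT or 2 eWAT libraries that stood apart on marker genes. Libraries were sequenced to 23.7 to 43.7 megacounts, so sampling error is small for members above 1 CPM and large for those near 0. Promoter letters come from RefSeq (GRCm38.p6), coordinates and exon lengths from GENCODE M21 on GRCm38. Results of 1 gene and some sequences are not reported here, and counts of members include that gene.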

Additional observations from a re-analysis of the deposited data

Results flagged for a closer look

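In 7 of the 83 group and member combinations examined, 1 library lay apart from the other 3 by more than 0.829 of the group's range (Dixon's limit for 4 values, which chance passes in about 1 of 20 groups). Where the other 3 libraries are at 0, any count passes that limit and the chance rate does not apply, as in 3 of the 7. All 7 concerned Serpina16 and Serpina1f in eWAT. Serpina16 read 77.1 CPM in WT RT 18, where the other 3 read 0 to 0.217 CPM, 0.260 CPM in KO RT 9 and 0.780 CPM in KO TN 21, where the others were at 0. Serpina1f read 39.2 CPM in WT RT 18 (others 0.0543 to 1.58 CPM), 1.69 CPM in KO RT 9 (others 0 to 0.168 CPM), 1.10 CPM in KO TN 21 (others at 0) and 2.68 CPM in WT TN 23 (others 0 to 0.348 CPM). WT RT 18 is also the library whose epididymis markers summed to 946 CPM. The part of epididymis RNA in these values was not tested.

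A temperature or genotype effect differed between the tissues for 10 combinations of member and effect, of which 9 are given here, by the test of the difference itself over 48 libraries without the replicate block (edgeR adjusted p). For genotype these were Serpinf1 at RT (0.00239) and Serpinb6a at TN (0.0254). For temperature in WT they were Serpine2 (3.44e-09), Serpinb9 (0.00098) and Serpinf1 (0.0236), and in KO Serpine2 (2.8e-09), Serpinf1 (0.00546), Serping1 (0.0179) and Serpina6 (0.0464). Leaving out 1 library ended the call of Serpinb6a without Liver KO TN 4 or WT TN 1 or 6 (adjusted p up to 0.0943), of Serpinf1 for WT temperature without BAT WT RT 12, 17 or 18 or BAT WT TN 7 (adjusted p up to 0.0764), and of Serpina6 in 18 of 24 such fits (adjusted p up to 0.143). Both Serpine2 calls were kept in all such fits.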

How the results depend on the processing

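Directions of the named serpins were the same under every alternative other than leaving out 1 library, where 266 gene results kept their side of the threshold, 27 calls were lost and 8 gained. DESeq2 size factors in edgeR and the 1 CPM filter moved no count of called members by over 1.5 times. DESeq2 called 1 member for liver genotype at RT, 5 for liver temperature in KO, 2 for the liver interaction, 2 for BAT genotype at RT, 5 for eWAT genotype at TN, 1 and 4 for eWAT temperature in WT and KO, and 2, 4 and 8 for the differences between tissues in genotype at RT, genotype at TN and temperature in KO. Without a count filter 2 members were called for liver temperature in KO and 1 for eWAT genotype at TN. With only the 8 libraries compared, 0 were called for liver temperature in KO, eWAT genotype at TN and eWAT temperature in KO. Without the 2 liver libraries high in immune markers 0 were called for genotype at TN and 0 for temperature in KO. Without the 5 BAT libraries highest in muscle markers 1 was called for genotype at RT and 4 for temperature in KO. Without the 2 eWAT libraries 3 were called for genotype at RT and 2 for temperature in KO. Counts under DESeq2 and the other alternatives, and with libraries left out, are of members alone. The share of all genes called under the same setting is not given beside them. They therefore do not separate a shift in serpins from a shift in calls over all genes. The causes were not tested.

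Leaving out 1 library at a time gave 1 to 4 calls for liver genotype at TN, 0 to 2 for liver temperature in KO, 0 to 5 for BAT genotype at RT (5 without WT RT 12), 4 to 8 and 7 to 8 for BAT temperature in WT and KO, 2 to 6 and 1 to 4 for eWAT genotype at RT and TN, and 0 to 2 for eWAT temperature in KO. For the differences between tissues it gave 1 to 3 (genotype at RT), 0 to 2 (genotype at TN), 2 to 5 and 3 to 6 (temperature in WT and KO). Uncalled liver genotype differences at RT changed sign, between -0.25 and 0.15 for Serpina3g, -0.086 and 0.19 for Serpinb6a, and -0.19 and 0.12 for Serpinb9.

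The labels number replicates across tissues. Correlations of 35 same-number pairs ran from -0.239 to 0.122 with a median of 0.0066, and 1 exceeded 0.1. They compare deviations from means of 4 libraries in different tissues, so they cannot decide whether libraries with 1 number share a mouse. Each number occurs in only 1 combination of genotype and housing. The main fits did not take the numbers as pairs. With the replicate block in the fit of all libraries, 0 members differed between tissues in genotype at TN, 2 in temperature in WT and 2 in temperature in KO. On plain library totals 7 group levels, all in BAT, moved by more than 1 SD and 77 did not. Members near 0 in a tissue are limited by depth.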
